A study of Canis lupus familiaris with 69 samples.

Results

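Pyometra is a purulent bacterial infection of the uterus, and the comparison described here is between 10 dogs with pyometra that had earlier received progesterone-like compounds to suppress the signs of estrus (treated) and 7 dogs with pyometra that had not (untreated). These 17 dogs are part of 69 client dogs of several breeds whose endometrium was hybridised, 1 array per dog, to a whole-transcript expression array of the dog made by Affymetrix. The other 52 dogs were 21 healthy dogs in diestrus, 16 with cystic endometrial hyperplasia (CEH) and 15 with mucometra, and their values are given only as a reference. By the study's clinical data, each of these groups included at least 1 dog that had received progesterone-like compounds. Part of the dogs with CEH or mucometra were in anestrus. The reference groups were not split by treatment or stage here. All the tissue was whole endometrium from the middle of a uterine horn, freed of luminal exudate and taken at ovariohysterectomy. The labels of the deposited arrays give the disease and the case number. The treatment status of each case number was read from the annotation drawn under the study's clustering of the arrays, as were the cervix (open or closed) and the stage of the cycle. Neither the compound, its dose nor the time since it was given is stated in the sources used here, and the age of each dog was not used.

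Diestrus is the phase of the cycle in which the corpus luteum secretes progesterone, and pyometra typically arises in it, when bacteria that have ascended from the vagina multiply in the uterus. Progesterone-like compounds given to stop estrus act through the same receptor. Neutrophils are the first cells recruited, by chemokines such as CXCL8, and they carry the calcium-binding proteins S100A8, S100A9 and S100A12, while macrophages make IL1B and TNF, cytokines that amplify the response.

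The cervix was closed in 7 of 10 treated dogs and in 2 of 7 untreated dogs (two-sided Fisher's exact test, p = 0.153). All 10 treated dogs and 5 of 7 untreated dogs were in diestrus, the other 2 being in anestrus (two-sided Fisher's exact test, p = 0.154). Cases 198 and 217 were those in anestrus. Treatment, cervix and stage were thus partly tied together, and values with each taken into account are given below. The array of untreated case 100 and that of mucometra case 216 correlated at r = 0.9928 over all genes, the highest of 2346 pairs of arrays, the next being 0.9889, so the calls lost without case 100 are named below. Endometrial markers were present in both groups: the progesterone receptor gene PGR averaged 8.74 in treated and 9.39 in untreated dogs, the epithelial adhesion gene EPCAM 8.39 and 8.78, and the uterine homeobox gene HOXA10 7.37 and 7.89, on the log2 scale of the arrays (3 of 8 genes looked at for this check; of the 8, ESR1, described below, was called lower in treated dogs).

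Each value is a log2 signal, so that a difference of 1 is a 2-fold difference. A gene was called when the treated and untreated means differed at least 2-fold with a Benjamini-Hochberg adjusted p under 0.05 in limma, fitted to the 17 arrays over 15947 genes. By this rule 460 genes were higher in treated dogs (2.88% of those tested) and 176 were lower (1.1%), while the median log2 fold change over all genes was 0.002. At least 4-fold differences were found for 80 of the higher and 14 of the lower genes. Every treated dog lay above every untreated dog for 190 genes (1.19% of those tested), and every treated dog lay below every untreated dog for 87 genes (0.546%). Of these, 118 were among the genes called higher and 24 among those called lower. The first principal component of the 17 arrays held 31.0% of the variance and averaged 22.06 in treated and -31.52 in untreated dogs (two-sided exact permutation test over 19448 assignments, p = 0.000103), with treated dogs from -1.0 to 42.4 and untreated dogs from -55.8 to 0.6. Components 2 and 3, with 13.1% and 10.3% of the variance, gave p = 0.22 and 0.423 in the same permutation test.

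**Figure D1:**
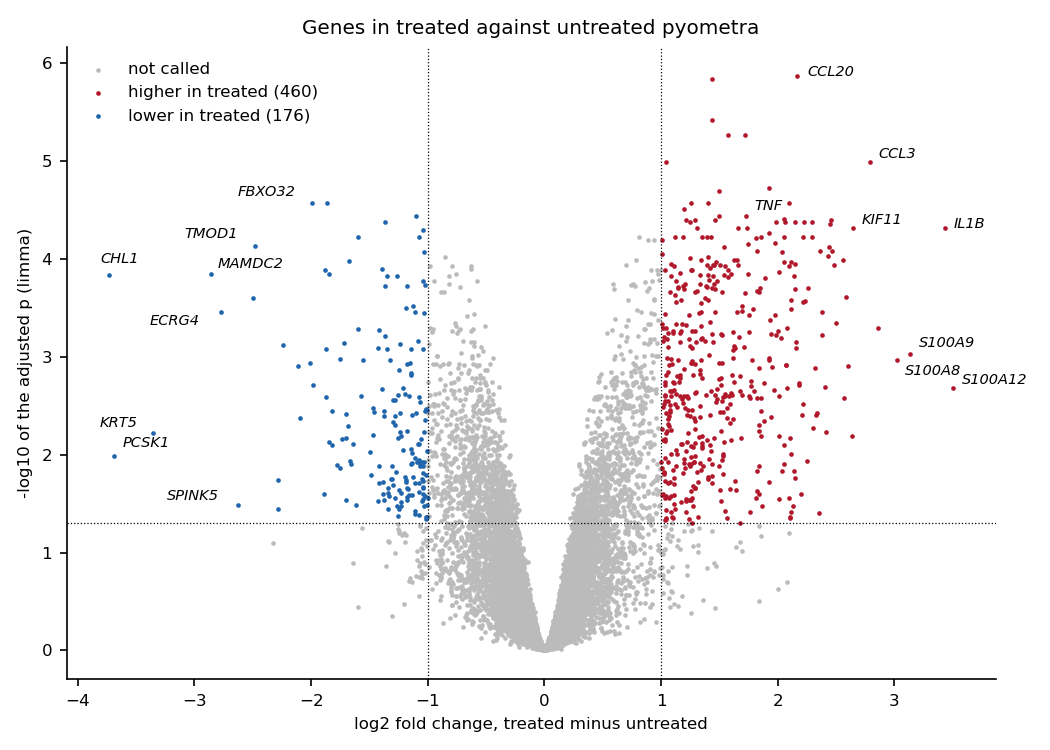
Each point is 1 of 15947 genes, with the log2 fold change of treated minus untreated dogs on the horizontal axis and -log10 of the limma adjusted p on the vertical axis, and dotted lines at the 2-fold and 0.05 thresholds. The 460 higher genes are red and the 176 lower genes blue, with CCL20, CCL3 and IL1B near the top on the right and CHL1, PCSK1 and KRT5 farthest to the left.

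Of the 15 largest rises in treated dogs, 3 were S100 genes of neutrophils, and the others included the cytokine IL1B, the chemokine CCL3, the macrophage gene ADGRE1 and cell cycle genes. S100A12 ranged from 9.91 to 12.32 with a median of 10.82 in treated dogs, and from 4.72 to 11.11 with a median of 6.58 in untreated dogs, so that the means differed by 3.51 ± 0.68 log2 units (SE, adjusted p = 0.00207, 11.4-fold). Only case 199, at 11.11, among the untreated dogs reached the treated range, and the remaining 6 lay at 8.94 or below. S100A9 ranged from 10.57 to 12.70 in treated and from 6.03 to 10.98 in untreated dogs, a log2 fold change of 3.13 ± 0.55 (adjusted p = 0.000926). S100A8, the partner of S100A9 in calprotectin, ranged from 8.80 to 11.54 in treated and from 5.86 to 9.90 in untreated dogs, a log2 fold change of 3.02 ± 0.54 (adjusted p = 0.00108). Cases 199 and 225 were the 2 highest untreated dogs for all 3 genes. The other members of the S100 family did not follow: 3 of 17 measured members were higher and the family's median was 0.03.

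Of 20 measured neutrophil genes, 15 were higher and none lower, with a median log2 fold change of 1.77. They included ITGAM, the integrin alpha chain of leukocytes, at 2.21 ± 0.47 (adjusted p = 0.00391), the granule proteins MMP8 and LTF, and the chemokine and growth factor receptors CXCR2 and CSF3R. The mean of the list in each dog, in log2 units from the mean of the 17 dogs, ranged from 0.01 to 1.89 with a median of 0.62 in treated dogs and from -1.60 to 0.38 with a median of -1.51 in untreated dogs. The dogs without pyometra ranged from -2.07 to -1.19. Cases 100, 198, 207 and 214 thus fell within the range of dogs without pyometra, whereas cases 199, 217 and 225 lay above it. In these bulk samples, more cells of a type and more RNA per cell cannot be told apart.

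**Figure D2:**
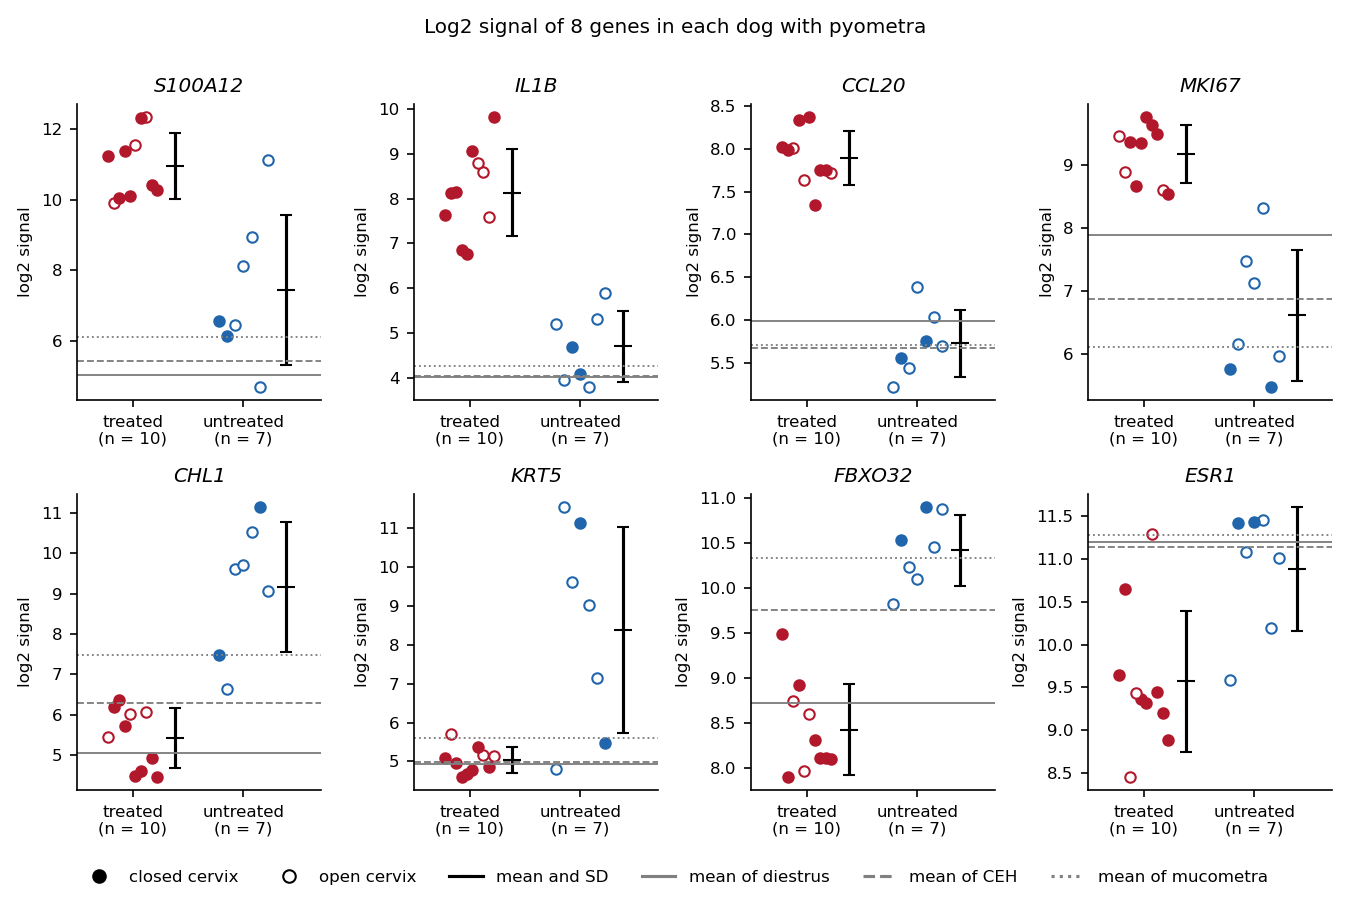
Each point is the log2 signal of 1 dog (filled for a closed cervix, hollow for an open one), bars are the mean and SD of 10 treated and 7 untreated dogs, and grey lines are the means of diestrus, CEH and mucometra dogs. IL1B, CCL20 and MKI67 separate the groups with every treated dog higher, CHL1 and FBXO32 with every treated dog lower, whereas S100A12, KRT5 and ESR1 overlap through a few dogs.

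Among the cytokines, IL1B, the inflammasome-processed fever cytokine, ranged from 6.75 to 9.81 with a median of 8.13 in treated dogs and from 3.80 to 5.89 with a median of 4.68 in untreated dogs. The groups did not overlap, and the log2 fold change was 3.43 ± 0.41 (adjusted p = 4.82e-05, 10.8-fold). The mean of 4.70 in untreated dogs lay near those of the dogs without pyometra, at 4.01 in diestrus, 4.04 in CEH and 4.27 in mucometra. TNF ranged from 6.36 to 7.57 with a median of 7.12 in treated dogs and from 4.64 to 5.75 with a median of 5.23 in untreated dogs, a log2 fold change of 1.73 ± 0.19 (adjusted p = 3.67e-05). Again no untreated dog reached the treated range, and the mean in mucometra, 5.40, was above the untreated mean of 5.21. IL6, which drives the acute phase response, was less uniform, from 5.41 to 9.73 in treated and from 4.25 to 8.17 in untreated dogs (log2 fold change 2.25 ± 0.56, adjusted p = 0.0115). Treated case 213 was low at 5.41 and untreated case 225 high at 8.17. In all, 7 of 26 cytokine genes were higher and none lower (median 0.28), the others being IL18, CSF3, IL1A and IL1RN, the receptor antagonist of IL-1, at 1.84 ± 0.27 (adjusted p = 0.000196). IL1A, at 1.82 ± 0.52 (adjusted p = 0.0234), lost its call when any of cases 100, 198, 207 or 214 was left out, with an adjusted p of 0.0595 at most.

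Chemokines, the attractants of leukocytes, rose in 8 of 22 measured members and fell in none (median 0.69). CCL20, which draws CCR6-bearing dendritic cells and lymphocytes to mucosae, had the smallest adjusted p of all genes. Its values ran from 7.35 to 8.37 with a median of 7.87 in treated dogs and from 5.22 to 6.39 with a median of 5.69 in untreated dogs, a log2 fold change of 2.17 ± 0.16 (adjusted p = 1.34e-06). The untreated mean of 5.73 lay between the means of CEH (5.67) and diestrus (5.99), close to those of dogs without pyometra. The highest dog without pyometra reached 9.12, above every treated dog. CCL3, a macrophage chemokine, ran from 8.56 to 10.63 with a median of 9.88 in treated dogs and from 6.39 to 7.78 with a median of 6.97 in untreated dogs (log2 fold change 2.79 ± 0.27, adjusted p = 1.03e-05). These groups did not overlap either, and the untreated mean of 7.00 was below that of mucometra, 7.29. CXCL8, the main neutrophil attractant, ran from 10.69 to 12.70 in treated and from 6.29 to 10.80 in untreated dogs (log2 fold change 2.33 ± 0.50, adjusted p = 0.00393), with case 199 the highest and case 100 the lowest untreated dog.

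Genes that sense or clear bacterial products were higher in part. Of 18 genes for Toll-like receptors and the recognition of lipopolysaccharide, 6 were higher and none lower (median 0.52). AOAH, the enzyme that inactivates lipopolysaccharide by removing its acyl chains, ran from 8.20 to 10.11 in treated and from 5.68 to 7.68 in untreated dogs without overlap (log2 fold change 2.26 ± 0.33, adjusted p = 0.0002). The co-receptor CD14 (1.41 ± 0.25, adjusted p = 0.000967), TLR1 (1.52 ± 0.31, adjusted p = 0.00282) and the inflammasome sensor NLRP3 (1.33 ± 0.25, adjusted p = 0.00149) were also higher. Antimicrobial proteins and mucins were higher in 4 of 17 members (median 0.56). Elafin, encoded by PI3, an inhibitor of neutrophil elastase, ran from 10.57 to 12.02 in treated and from 6.22 to 11.90 in untreated dogs (log2 fold change 2.63 ± 0.60, adjusted p = 0.00646), and cases 199 and 225 again were within the treated range. Lactoferrin, LTF, which binds iron, ran from 10.65 to 11.84 in treated dogs and from 6.37 to 12.23 in untreated dogs. Its log2 fold change of 2.13 ± 0.65 (adjusted p = 0.0338) was no longer called when any of cases 100, 185, 207, 214, 222 or 229 was left out, with an adjusted p of 0.0864 at most.

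Markers of macrophages and lymphocytes were higher as well. Of 19 macrophage and monocyte genes, 11 were higher and none lower (median 1.35), led by ADGRE1, the F4/80 antigen of mouse macrophages, which ran from 8.28 to 10.40 in treated and from 4.83 to 8.69 in untreated dogs (log2 fold change 2.86 ± 0.46, adjusted p = 0.000508). The high-affinity IgG receptor FCGR1A (2.08 ± 0.40, adjusted p = 0.00206) and the myeloid transcription factor SPI1 (1.62 ± 0.28, adjusted p = 0.000768) followed. The list mean ranged from -0.18 to 1.12 in treated and from -1.38 to 0.24 in untreated dogs. B and plasma cell genes were higher in 8 of 18 members (median 1.13), among them MZB1, a chaperone of antibody secretion (2.12 ± 0.52, adjusted p = 0.00981). Their list mean overlapped widely, with treated cases 213, 228 and 231 between -0.76 and -0.25 and untreated case 217 at 0.55. T and NK cell genes were higher in 5 of 22 members (median 0.73), including CD3D (1.32 ± 0.30, adjusted p = 0.00654) and CD4 (2.15 ± 0.37, adjusted p = 0.00082). With the mean of the neutrophil list as a covariate, a fit described below, CD4 was 0.55 ± 0.45 and CD3D 1.15 ± 0.53, neither of them called. Which cells the CD4 signal came from was not tested. Endothelial genes were higher in 3 of 16 members (median 0.65), namely PLVAP and the selectins SELE and SELP, which capture rolling leukocytes. The other 13, PECAM1, VWF and CDH5 among them, were not called. Over all genes tested 2.88% were higher and 1.1% lower. None of 8 mast cell genes was called.

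**Figure D3:**
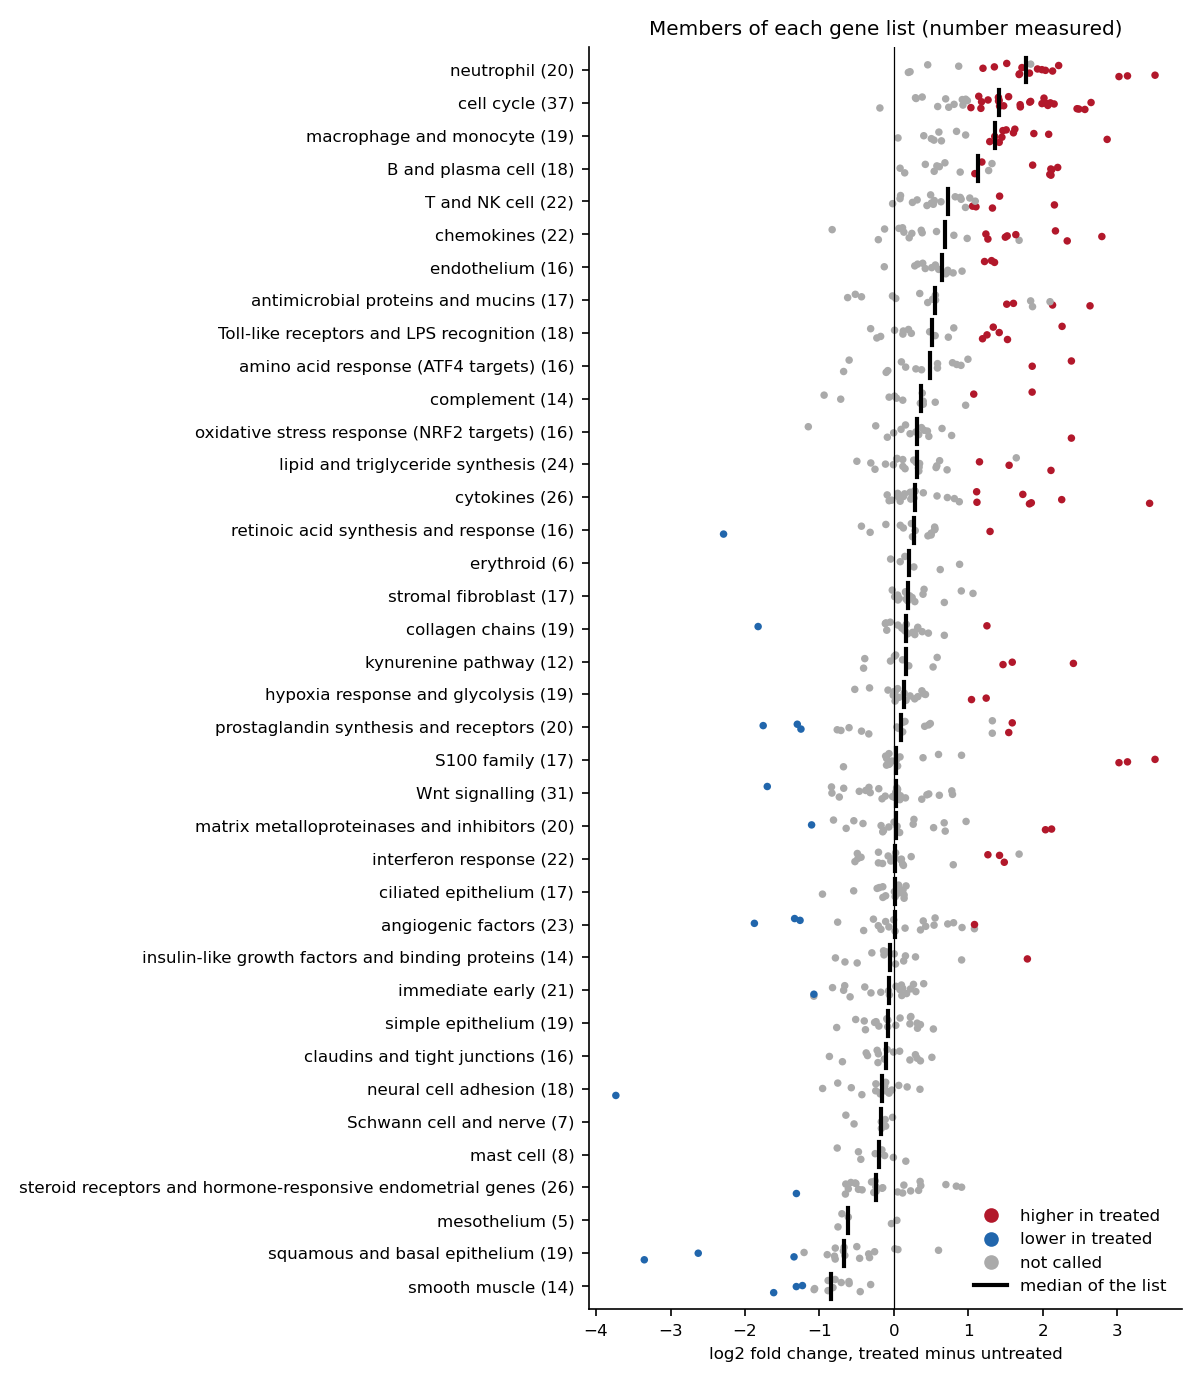
Each point is the log2 fold change (treated minus untreated) of 1 measured member of 38 gene lists, red when higher, blue when lower and grey when not called, and the black bar is the list's median. The medians of the neutrophil (1.77), cell cycle (1.40) and macrophage (1.35) lists are farthest to the right, and those of smooth muscle (-0.85) and squamous and basal epithelium (-0.67) farthest to the left.

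Cell cycle genes formed the second group. Of 37 measured members 25 were higher and none lower, 36 had a positive fold change, and the median was 1.40. MKI67, the proliferation antigen, ran from 8.54 to 9.75 with a median of 9.36 in treated dogs and from 5.48 to 8.31 with a median of 6.16 in untreated dogs (log2 fold change 2.56 ± 0.34, adjusted p = 0.000103). No untreated dog reached the lowest treated dog, although case 199 came close. CCNA2, the S and G2 phase cyclin, ran from 7.55 to 8.68 in treated and from 4.89 to 7.00 in untreated dogs (log2 fold change 2.46 ± 0.28, adjusted p = 4.03e-05). The spindle motor KIF11 (2.65 ± 0.32, adjusted p = 4.88e-05) did not overlap, and TOP2A, the topoisomerase of dividing cells (2.48 ± 0.33, adjusted p = 0.000116), overlapped only in case 199. E2F1, a transcription factor of entry into S phase, ran from 6.50 to 7.63 in treated and from 4.68 to 6.12 in untreated dogs (log2 fold change 1.40 ± 0.20, adjusted p = 0.000145). Cell cycle genes were also expressed in healthy diestrus endometrium: the mean of MKI67 was 7.88 in diestrus against 6.87 in CEH and 6.11 in mucometra, and that of E2F1 was 6.86 in diestrus against 5.65 in untreated dogs. For both genes the untreated mean was below the diestrus mean and the treated mean above it, although untreated case 199 was above it for MKI67 (8.31) and treated cases 205, 229 and 231 were below it for E2F1 (6.65, 6.50 and 6.79). The highest values in dogs without pyometra, 10.45 for MKI67 and 8.46 for E2F1, were above those of every treated dog. The list mean ranged from 0.08 to 0.96 in treated dogs and from -1.12 to -0.12 in untreated dogs, with no overlap. In dogs without pyometra it ranged from -1.20 to 1.49, past both groups.

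Because neutrophil genes moved with the treatment, the fit was repeated with the mean of the neutrophil list in each dog as a covariate. This alternative was added after the data had been seen, the covariate is itself tied to the groups, and it removes by construction the difference of the genes it is made of. It left 58 genes higher and 11 lower, of which 44 and 9 were also called without the covariate. S100A12, a member of the list, went from 3.51 to -0.18 ± 0.49 (adjusted p = 0.96), so its fall was fixed in advance. IL1B, which is not a member, went from 3.43 to 1.44 ± 0.40 (adjusted p = 0.151). Also outside the list, CCL20 (2.0 ± 0.28, adjusted p = 0.00396), CCL3 (2.47 ± 0.47, adjusted p = 0.0255) and TNF (1.60 ± 0.34, adjusted p = 0.0425) were still called. The median of the cell cycle list was 1.57 under this fit against 1.40 without the covariate, with 9 of 37 members called, including CCNA2 (2.33 ± 0.49, adjusted p = 0.0426) and the DNA helicase subunits MCM2 and MCM3. Those of the macrophage list and of the Toll-like receptor list were -0.03 and -0.09. Among the lower genes, FBXO32 and TMOD1 kept their call, whereas CHL1 had a similar fold change of -3.81 ± 0.92 with an adjusted p of 0.076.

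The genes lower in treated dogs were led by CHL1, a neural cell adhesion molecule of the L1 family, at a log2 fold change of -3.73 ± 0.52 (adjusted p = 0.000147). Every treated dog lay below every untreated dog, and 17 other neural cell adhesion genes were not called (list median -0.16). PCSK1, a convertase of prohormones, ran from 4.23 to 9.66 with a median of 5.99 in treated dogs and from 5.77 to 12.26 with a median of 10.62 in untreated dogs (log2 fold change -3.69 ± 0.90, adjusted p = 0.0102). Treated cases 205 and 222 were high, at 9.66 and 8.46, and untreated case 199 low, at 5.77. For CHL1 and PCSK1 the treated means, 5.43 and 6.21, were above the diestrus means, 5.05 and 4.27. The untreated means of these genes, 9.16 and 9.90, were above those of mucometra, 7.485 and 7.86. FBXO32, a ubiquitin ligase subunit known from wasting muscle, ran from 7.91 to 9.49 with a median of 8.22 in treated dogs and from 9.83 to 10.90 with a median of 10.46 in untreated dogs (log2 fold change -1.99 ± 0.21, adjusted p = 2.66e-05). The untreated mean of 10.42 was close to that of mucometra, 10.34, and the treated mean of 8.43 to that of diestrus, 8.72. TMOD1, which caps actin filaments, ran from 6.71 to 9.01 in treated and from 9.58 to 11.22 in untreated dogs (log2 fold change -2.48 ± 0.31, adjusted p = 7.43e-05), and DPP6, an auxiliary subunit of potassium channels, from 5.61 to 8.03 and from 8.36 to 11.03 (log2 fold change -2.50 ± 0.38, adjusted p = 0.000249). Neither gene overlapped, and for both the untreated mean was nearer to that of mucometra than to that of diestrus. MAMDC2 (-2.86 ± 0.40, adjusted p = 0.000143) and ECRG4, the precursor of the secreted peptide augurin (-2.78 ± 0.43, adjusted p = 0.000352), were lower too, with the treated mean below that of each other group. Untreated case 225 was alone within the treated range of MAMDC2, at 6.72.

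Genes of squamous and basal epithelium were high in some untreated dogs. KRT5, the keratin of basal epithelial cells, ran from 4.61 to 5.71 in treated dogs, near the means of 4.93 in diestrus and 4.99 in CEH. The mean in mucometra was 5.61 (SD 1.41), and the highest dog without pyometra reached 10.23. Among the untreated dogs KRT5 was 11.53 in case 199, 11.13 in case 100, 9.61 in case 198 and 9.01 in case 214. It was 7.15 in case 217, but 5.47 in case 207 and 4.80 in case 225. The log2 fold change was -3.35 ± 0.76 (adjusted p = 0.00604), and it stayed called with each of the 17 dogs left out. SPINK5, an inhibitor of epidermal proteases, was high in 4 of these dogs, at 11.10, 9.21, 8.85 and 7.94 in cases 100, 198, 214 and 217, while the other 3 untreated dogs lay between 4.04 and 4.95 and the treated dogs between 4.07 and 5.0. The highest dog without pyometra reached 10.51 for SPINK5. The SPINK5 call (-2.63 ± 0.80, adjusted p = 0.0324) was lost when any of cases 100, 198, 214 or 217 was left out, with an adjusted p of 0.0781 at most. KRT17, a keratin of injured epidermis (-1.34 ± 0.38, adjusted p = 0.022), lost its call without case 100 (adjusted p = 0.0581) or case 199 (log2 fold change -0.97). In all, 3 of 19 squamous and basal genes were lower and none higher. None of 19 genes of simple epithelium, 17 of ciliated epithelium or 17 of stromal fibroblasts was called, with medians of -0.08, 0.02 and 0.18.

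Smooth muscle genes had negative fold changes in all 14 members (median -0.85), and 3 of them were called lower. MYH11, the smooth muscle myosin heavy chain, ran from 5.92 to 10.49 with a median of 9.64 in treated dogs and from 9.83 to 11.34 with a median of 10.66 in untreated dogs (log2 fold change -1.61 ± 0.49, adjusted p = 0.033). Treated cases 205 and 222, at 5.92 and 7.76, were the lowest, and the call was lost when any of 7 dogs (cases 100, 185, 198, 207, 214, 217 and 222) was left out, with an adjusted p of 0.0739 at most. The list mean ranged from -2.39 to 0.86 in treated and from -0.13 to 1.08 in untreated dogs. The share of myometrium in a sample is not recorded, and the part of it in these values was not tested.

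**Figure D4:**
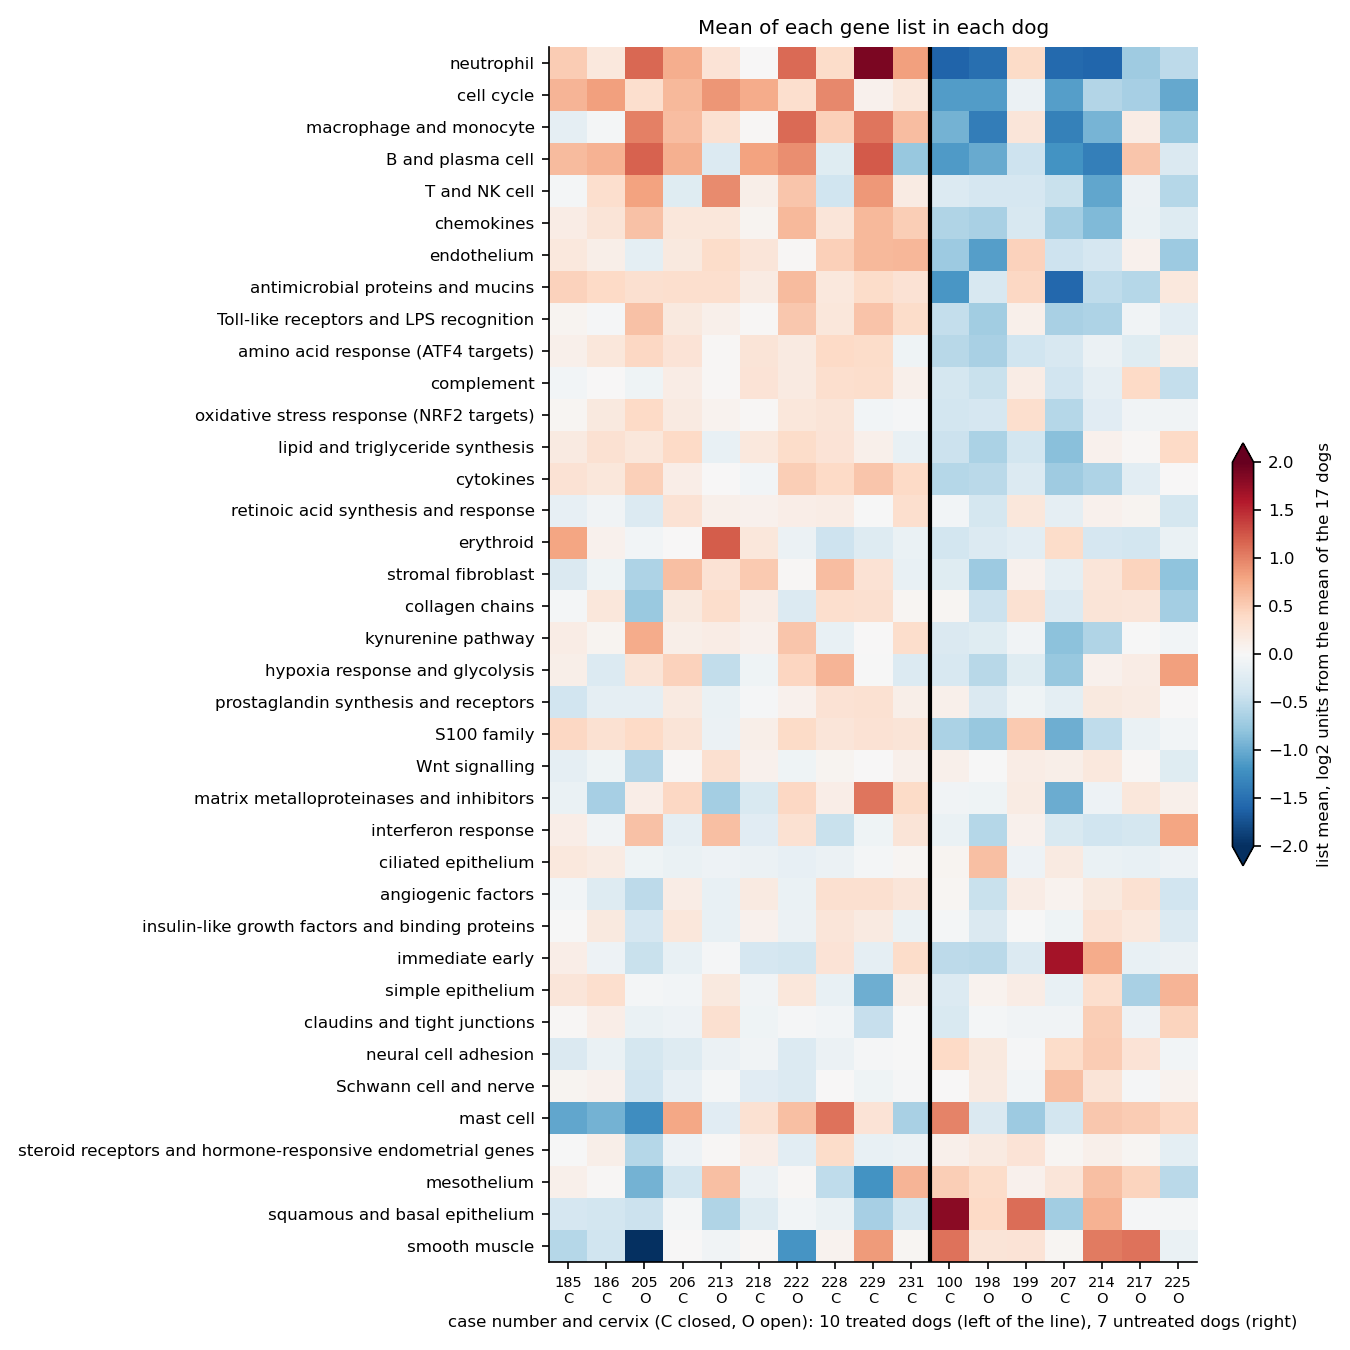
Colours give the mean of each of 38 gene lists (rows) in each of the 17 dogs (columns, by case number with C for a closed and O for an open cervix), in log2 units from the mean of the 17 dogs, with the colour scale ending at 2 units. Untreated case 199 resembles the treated dogs in the neutrophil row (0.38), the cell cycle row separates the groups completely, and the squamous row is high in untreated cases 100 (1.81) and 199 (1.11).

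Most hormone and growth factor lists had a single called member, while over all genes tested 2.88% were higher and 1.1% lower. A single called gene in such a list is near those shares and is not a result about the list. ESR1, the estrogen receptor alpha, ran from 8.46 to 11.29 with a median of 9.40 in treated dogs and from 9.59 to 11.45 with a median of 11.08 in untreated dogs (log2 fold change -1.31 ± 0.35, adjusted p = 0.0176). The untreated mean of 10.88 was close to those of diestrus (11.20), CEH (11.14) and mucometra (11.28), and the treated mean of 9.57 was below all of them. ESR1 was the only called member of 26 steroid receptor and hormone-responsive genes (median -0.24), and PGR had a log2 fold change of -0.65 ± 0.29 (adjusted p = 0.138). IGFBP2, a binding protein of insulin-like growth factors, ran from 8.36 to 10.26 in treated and from 6.83 to 8.28 in untreated dogs without overlap (log2 fold change 1.79 ± 0.28, adjusted p = 0.000322), as the only called member of 14. PDGFC, a platelet-derived growth factor, ran from 7.71 to 8.72 in treated and from 8.93 to 10.09 in untreated dogs, again without overlap (log2 fold change -1.26 ± 0.18, adjusted p = 0.000148). Of 23 angiogenic genes, ANGPT2 was the only one higher (1.08 ± 0.24, adjusted p = 0.00562; not called without case 100 or case 198, with a log2 fold change of 0.97 at the lowest), ANGPTL1 and THBS2 were lower besides PDGFC (THBS2 not without case 100, 198 or 207, adjusted p = 0.0645 at most), and VEGFA, the vascular endothelial growth factor, had a log2 fold change of 0.01 ± 0.21 (adjusted p = 0.973). RSPO3, an enhancer of Wnt signalling (-1.70 ± 0.51, adjusted p = 0.0288), was the only called gene among 31 of that pathway, and lost its call without case 207, 214 or 217 (adjusted p = 0.0699 at most).

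Of 20 prostaglandin genes, 2 were higher, 3 lower and 15 not called (median 0.09), while over all genes tested 2.88% were higher and 1.1% lower. The synthase PTGES (1.54 ± 0.36, adjusted p = 0.00744) and the receptor PTGDR (not called without case 100 or case 207, adjusted p = 0.053 at most) were higher, whereas PTGIS and the receptors PTGER3 (-1.76 ± 0.45, adjusted p = 0.0137) and PTGFR, which mediates contraction of the uterus by prostaglandin F (-1.30 ± 0.26, adjusted p = 0.00278), were lower. PTGFR ran from 4.64 to 5.55 in treated and from 5.42 to 7.33 in untreated dogs, the overlap being with cases 214 and 225. PTGS2, the inducible cyclooxygenase, ran from 9.40 to 11.41 with a median of 10.69 in treated dogs and from 7.74 to 12.26 with a median of 8.72 in untreated dogs, and was not called (log2 fold change 1.32 ± 0.52, adjusted p = 0.0985). Case 225 had the highest value of all 17 dogs, and without it PTGS2 was called (1.82 ± 0.39, adjusted p = 0.00379). The means of treated (10.56) and untreated dogs (9.24) were above those of diestrus (4.81), CEH (6.22) and mucometra (7.76). The highest dog without pyometra reached 9.26, below every treated dog, and 3 of 7 untreated dogs were above it.

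Several metabolic genes were higher, while over all genes tested 2.88% were higher and 1.1% lower. In the kynurenine pathway of tryptophan breakdown 3 of 12 genes were called, KMO (2.41 ± 0.54, adjusted p = 0.00584), KYNU (1.59 ± 0.33, adjusted p = 0.00307) and AFMID (1.46 ± 0.22, adjusted p = 0.000204). AFMID, a formamidase, ran from 5.33 to 7.01 in treated and from 4.60 to 5.42 in untreated dogs. SLC7A11, the cystine transporter (2.38 ± 0.40, adjusted p = 0.000599), and PSAT1, of serine synthesis (1.86 ± 0.37, adjusted p = 0.00265), were the 2 called members of 16 amino acid response genes. DGAT2, which completes triglycerides (2.11 ± 0.49, adjusted p = 0.00683), the fatty acid desaturase FADS1 (1.55 ± 0.31, adjusted p = 0.00239) and the lipid droplet protein PLIN2 (1.15 ± 0.20, adjusted p = 0.00107) were the called members of 24 lipid synthesis genes. The medians of the kynurenine, amino acid response and lipid synthesis lists were 0.16, 0.48 and 0.31, and most of their members were not called. ALDH1A1, which makes retinoic acid, was lower (-2.29 ± 0.62, adjusted p = 0.0181; -2.04 ± 0.69, adjusted p = 0.0642 in dogs in diestrus, and -1.39 ± 1.08 in those with an open cervix) and CYP26B1, which degrades it, higher (1.29 ± 0.26, adjusted p = 0.00232). SMPDL3A, an acid sphingomyelinase-like enzyme, ran from 11.48 to 12.83 in treated and from 7.94 to 12.26 in untreated dogs (2.56 ± 0.52, adjusted p = 0.00261). Interferon response genes were called in 3 of 22 (median 0.02), and no claudin or tight junction gene of 16 was (median -0.11).

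The remaining lists had few called members, while over all genes tested 2.88% were higher and 1.1% lower. A single called gene in a list is near those shares. Matrix metalloproteinases and their inhibitors had 2 of 20 higher, MMP8 and MMP9, and 1 lower, MMP16 (median 0.02). MMP16 (-1.11 ± 0.30, adjusted p = 0.0193) was not called without case 205 or case 217 (log2 fold change -0.91 at its weakest) or in dogs in diestrus alone (adjusted p = 0.0768). MMP9, a gelatinase of neutrophils and macrophages, ran from 6.31 to 11.09 in treated and from 4.62 to 8.28 in untreated dogs (log2 fold change 2.12 ± 0.67, adjusted p = 0.0383), and its call was lost when any of 11 of the 17 dogs was left out, with an adjusted p of 0.0954 at most. Complement genes had 2 of 14 higher (median 0.37), the anaphylatoxin receptor C5AR1 (1.85 ± 0.39, adjusted p = 0.00359) and CFP. Hypoxia and glycolysis genes had 2 of 19 higher (median 0.14), HK2 and SLC2A3. The glucose transporter SLC2A3 (1.04 ± 0.30, adjusted p = 0.0265) lost its call without any of cases 100, 198, 205, 206, 228, 229 or 231 (adjusted p = 0.0688 at most), with the cervix as a second factor (adjusted p = 0.0599), in dogs in diestrus (adjusted p = 0.0689) and with case number as a covariate (adjusted p = 0.0676). Genes of the oxidative stress response had only SLC7A11 of 16 (median 0.31). Collagen chains had 1 of 19 higher, COL15A1, and 1 lower, COL14A1 (median 0.17). Of 21 immediate early genes JUN alone was called, lower in treated dogs (-1.08 ± 0.25, adjusted p = 0.00778), and its difference was smaller than 2-fold without case 205 or case 207. None of 7 Schwann cell and nerve genes, 5 mesothelial genes or 6 erythroid genes was called, with medians of -0.17, -0.61 and 0.21.

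Of 460 genes higher in treated dogs, 443 had a treated mean above the mean of each group without pyometra, and 255 had an untreated mean above each of them as well, while 57 had an untreated mean below each. Of 176 lower genes, 133 had a treated mean below each of these groups and 91 an untreated mean above each. The called genes were chosen by their treated and untreated means, so part of these counts is fixed by the choice. The same shares over all genes tested were not counted. The nearest array of every treated dog was that of another treated dog. Of the untreated dogs, cases 100, 198, 214 and 217 were nearest to mucometra case 216, case 207 to mucometra case 219, case 199 to untreated case 217 and case 225 to untreated case 214.

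With the cervix as a second factor 509 genes were higher and 251 lower, of which 446 and 168 were among those called without it. The cervix itself gave 0 called genes in that limma fit, against 43 at an unadjusted p under 0.05 with a 2-fold difference. No gene passed for an interaction of treatment and cervix in limma, against 1284 at an unadjusted p under 0.05. Among the 8 dogs with an open cervix, 3 treated and 5 untreated, 9 genes were higher and 0 lower. At least 2-fold differences in the same direction were kept by 374 of 460 and 148 of 176 genes. These genes were chosen in all 17 dogs, which include these 8, so much of that is fixed by the choice. CCL20 (2.03 ± 0.26, adjusted p = 0.0494) and CCL3 (3.33 ± 0.28, adjusted p = 0.00671) were among the 9. Other leading rises were smaller in these dogs, at 0.81 ± 0.80 for IL6, 1.17 ± 0.88 for LTF and 1.87 ± 0.89 for PI3 (adjusted p = 0.753, 0.646 and 0.436), against 3.75 ± 0.58, 4.63 ± 0.31 and 4.71 ± 0.29 in dogs with a closed cervix, where the untreated group was cases 100 and 207 only. Among the 9 dogs with a closed cervix, 7 treated and 2 untreated, 626 genes were higher and 414 lower. In the dogs in diestrus alone, 10 treated and 5 untreated, 451 genes were higher and 145 lower, of which 417 and 120 were shared with the comparison of all 17 dogs. Of the named genes, 12 lost their call there: ALDH1A1, IL1A, LCN2, GBP5, SLC2A3, MMP16, RSPO3, SPINK5, UPK3BL2 and the 3 called smooth muscle genes MYH11, LMOD1 and SYNPO2. Without case 100, which resembled a mucometra sample, 394 genes were higher and 128 lower, and 17 of the 98 called genes named by the rule lost their call. These were IL1A, LTF, LCN2, MMP9, PTGDR, the B and plasma cell genes POU2AF1, MS4A1 and TNFRSF17, GBP5, SLC2A3 and ANGPT2 among the higher genes, and SPINK5, KRT17, MYH11, SYNPO2, THBS2 and UPK3BL2 among the lower ones. Leaving out each dog in turn kept 345 of the 460 higher and 88 of the 176 lower genes called throughout.

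**Figure D5:**
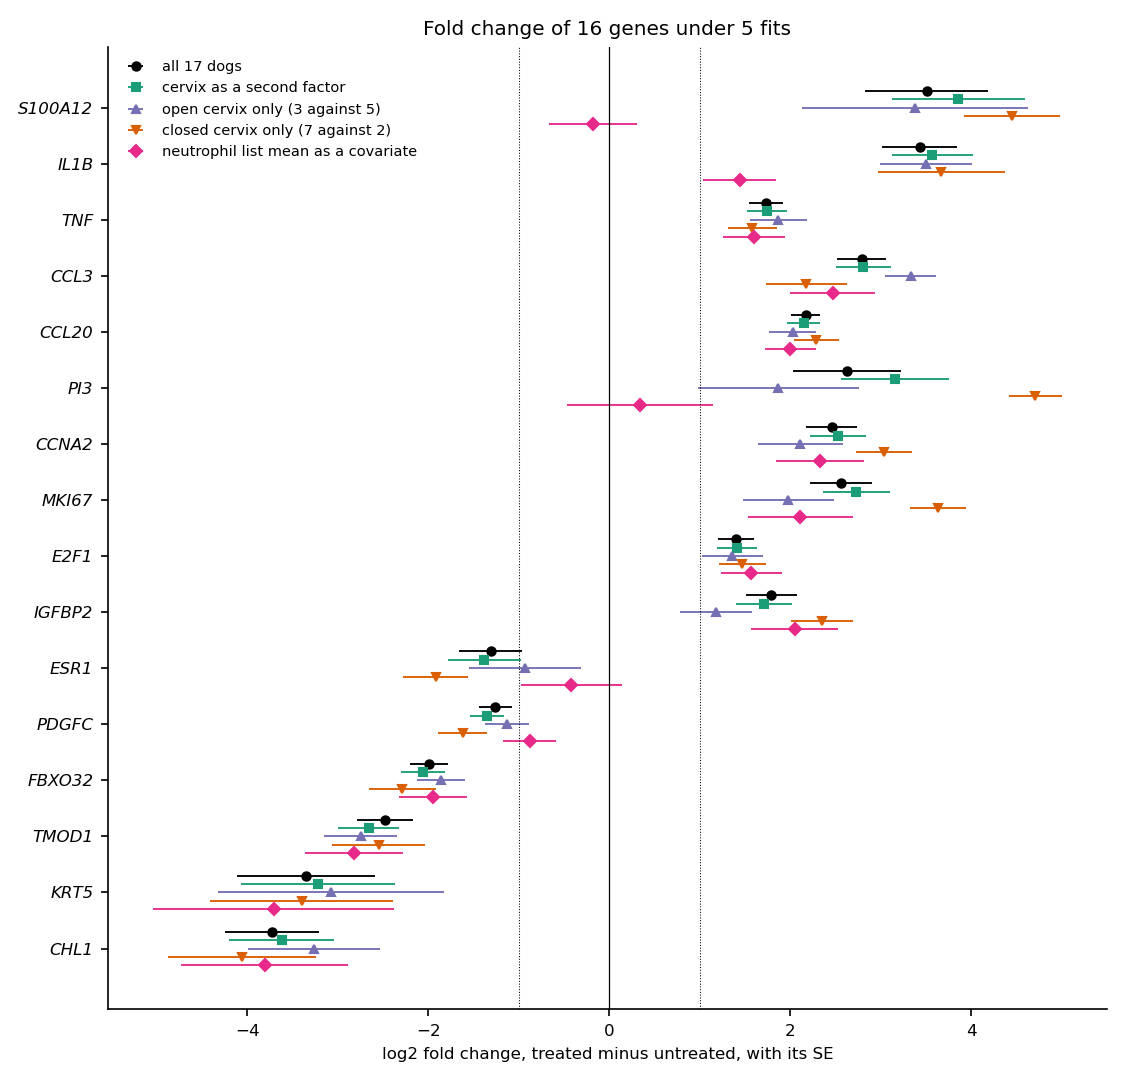
Points are log2 fold changes (treated minus untreated) with their SE for 16 genes in 5 fits: all 17 dogs, with the cervix as a second factor, dogs with an open cervix only, dogs with a closed cervix only, and with the neutrophil list mean as a covariate. CCL20 stays between 2.0 and 2.29 in all 5 fits. Under the neutrophil covariate PI3 falls to 0.34, and S100A12, a member of the list that made the covariate, falls by construction to -0.18.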

How the data were processed

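The deposited table held 32391 probe sets by 69 arrays, as log2 signals that the authors had made by RMA (background correction, quantile normalization and summary of the probes) from 1 Canine Gene array per dog, ranging from -0.16 to 14.12. Array medians were 6.21 to 6.34 in treated and 6.20 to 6.28 in untreated dogs. The number of arrays limits the precision. Probe sets were named from the platform annotation: 16545 had 1 symbol, 370 several and 15476 none. The last 2 kinds were left out. Of several probe sets for a gene, that with the highest mean over the 69 arrays was kept (598 set aside, 15947 genes), and its values say nothing of splice forms.

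Treated and untreated pyometra were compared with lmFit and eBayes of limma 3.58.1 (R 4.3.3) on the 17 arrays, a gene being called at 2-fold and a Benjamini-Hochberg adjusted p under 0.05. The script was checked on simulated data. Each dog is 1 sample. The groups, the 38 lists (717 genes, 660 measured) and the tests were chosen with earlier results of these data known, and p-values of listed genes were adjusted over all genes. Named genes were the 15 largest rises and 15 largest falls, the genes that the study's text names for this comparison (22 of 24 measured), and up to 4 called members of each list. The alternatives were quantile normalization over the 17 arrays, array medians subtracted, the genes brighter than the median gene, the mean of probe sets, all 69 arrays in the fit, trended and robust variances, the methods' t-test, Bonferroni adjustment, the cervix as a factor, case number as a covariate, dogs in diestrus, with open or with closed cervix only, each dog left out and, added after the data were seen, the neutrophil covariate.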

Additional observations from a re-analysis of the deposited data

Results flagged for a closer look

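Of 278 checks of whether the highest or lowest dog of a group stood apart from the others (Dixon's ratio at 95%), 16 marked a dog, and chance marks about 1 in 20 groups. Among treated dogs, case 205 was lowest for ADAMTSL3, a matrix protein (5.23), and RSPO3 (5.54), and highest for the interferon-induced exonuclease ISG20 (9.92). Case 213 was highest for VIPR2, a receptor of vasoactive intestinal peptide (7.24), and lowest for IL6 (5.41). Case 229 was highest for the acetylcholine receptor subunit CHRNA6 (7.93) and for FADS1 (12.42), and lowest in the mean of the simple epithelium list (-0.97). Among untreated dogs, case 225 was lowest for MAMDC2 (6.72) and highest for IL1A (9.31) and the guanylate-binding protein GBP5 (5.76). Case 198 was lowest for E2F1 (4.68) and highest in the mean of the ciliated epithelium list (0.60). Case 207 was highest in the mean of the erythroid list (0.37) and lowest in that of the matrix metalloproteinases and their inhibitors (-0.99). Case 199 was highest for CFP, the complement factor properdin (7.05).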

How the results depend on the processing

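Against 460 genes higher and 176 lower, the genes brighter than the median gene gave 256 and 87, Bonferroni adjustment 123 and 22, dogs with an open cervix 9 and 0, and the neutrophil covariate 58 and 11. Dogs with a closed cervix gave 414 lower genes. Leaving out 1 dog gave 391 to 494 higher and 128 to 279 lower genes, the highest lower count being without untreated case 225. The count for an interaction of treatment and cervix was 0, and 0 to 14 with 1 dog left out (14 without untreated case 100, 7 without untreated case 207, 1 without treated case 205 and 1 without untreated case 214). All other alternatives kept the counts within 1.5 times. With case number as a covariate, however, 19 of the 100 named genes were weaker. Among them LTF (limma adjusted p = 0.0869), MMP9 (0.0995), IL1A (0.0604) and SPINK5 (0.0772) lost their call. The methods' t-test gave 426 and 152 genes after Benjamini-Hochberg adjustment.

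VEGFA, at 0.01, was -0.01 with array medians subtracted or with case number as a covariate and -0.28 in dogs with an open cervix, and ranged from -0.05 to 0.12 with 1 dog left out. Under the neutrophil covariate the log2 fold change of MMP9 was -1.37, MMP8 -0.61, ITGAM -0.28, C5AR1 -0.28, KMO -0.21, S100A12 -0.18, FCGR1A -0.08, LTF -0.07, PTGDR -0.07, TLR1 -0.04, LCN2 -0.04 and CCL7 -0.01. Of these, S100A12, LTF, MMP8, ITGAM and LCN2 are in the list that made the covariate. The cause of the other changes was not tested. Of 98 called genes named by the rule, 76 kept the call with each dog left out. No paired analysis was possible because each case number belongs to 1 dog. Treatment status rests on the study's annotation by case number, and the treated dogs more often had a closed cervix, so treatment and cervix cannot be fully told apart.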
